A study of Mus musculus with 8 samples.

Results

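C/EBPα was profiled at 9 genes that mark or serve the type 1 conventional dendritic cell (cDC1): Xcr1, Clec9a, Cadm1, Tlr3, Itgae, Naaa, Ppt1, Wdfy4 and Zbtb46. The genes were taken by name from 21887 protein-coding genes, and the regions examined were the C/EBPα regions within 20 kb of their mm10 gene bodies, 187 of 259446 regions in all. The libraries came from sorted mouse bone marrow progenitors (Lin- KIThi-int FLT3+) that carried the DC variant, the DE variant or the WT form of the Zeb2 -165 kb enhancer; Zeb2 encodes a zinc-finger repressor. CUT&RUN, in which a nuclease tethered to an antibody cuts out the DNA beside a bound protein, gave 2 anti-C/EBPα libraries per genotype, replicate 1 in batch 1 and replicate 2 in batch 2. The labels do not say what change DC or DE stands for. Nor do they say whether a genotype's replicates are different animals, and p-values therefore measure only the spread between these libraries. The 2 IgG libraries, both WT, were not analysed here.

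cDC1 are the dendritic cells that take up dead cells and present their antigens to CD8+ T cells (cross-presentation), and they need IRF8 and BATF3. C/EBPα is a basic leucine-zipper factor of early myeloid progenitors that binds sites of the form TTGCNNAA and acts with PU.1 at many myeloid enhancers. The peak lists hold no expression values, so the sorted population could not be checked against its markers.

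Among the 7 promoter windows available, only that of Ppt1 was overlapped by peaks of every library. Its sequence is shown with that of Tlr3, whose window holds a similar match but was overlapped in 1 library. Both run 250 bases before to 50 bases after the RefSeq start (GRCm38.p6, the mm10 assembly), 5′ to 3′ on the gene's strand, and capitals mark a match to TTGCNNAA or its reverse complement TTNNGCAA. The Ppt1 window is chr4:122835977-122836276 on the plus strand and the Tlr3 window is chr8:45410331-45410630 on the minus strand.
Ppt1 promoter: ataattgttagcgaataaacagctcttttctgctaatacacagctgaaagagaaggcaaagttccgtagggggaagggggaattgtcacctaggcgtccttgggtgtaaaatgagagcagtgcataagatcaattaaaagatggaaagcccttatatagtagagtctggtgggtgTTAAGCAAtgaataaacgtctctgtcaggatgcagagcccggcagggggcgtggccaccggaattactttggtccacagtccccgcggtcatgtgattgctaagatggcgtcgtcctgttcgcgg
Tlr3 promoter: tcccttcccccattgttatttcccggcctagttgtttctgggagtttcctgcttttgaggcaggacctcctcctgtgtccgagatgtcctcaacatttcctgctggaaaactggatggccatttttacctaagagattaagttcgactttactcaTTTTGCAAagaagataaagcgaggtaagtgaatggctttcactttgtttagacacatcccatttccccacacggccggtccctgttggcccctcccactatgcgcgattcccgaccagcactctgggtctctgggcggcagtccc

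In the Ppt1 window the match TTAAGCAA lies at chr4:122836152-122836159. The peak summits of all 6 libraries fell 13 to 37 bp from it, between positions 122836172 and 122836196. In the Tlr3 window the match TTTTGCAA lies at chr8:45410468-45410475, and the only summit there was 9 bp away, in DC replicate 1, with 7 fragments. A RefSeq promoter was in the table used for 7 of the 9 genes, and 2 of the 7 held the C/EBP letters on either strand, against 10.1% of 17492 promoters. None of the 7 held the PU.1 letters GAGGAA or TTCCTC, which 27.5% of promoters hold. The C/EBP and PU.1 letters were searched separately, and a match is a stretch of letters, not a binding site shown by these data.

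The other promoters were overlapped by peaks of fewer libraries. Peaks overlapped the Wdfy4 window in DC replicate 1, DE replicate 2 and WT replicate 2, the Clec9a window in DC replicate 1 and DE replicate 2, and the Naaa window in WT replicate 2. The summits of all 6 libraries in Wdfy4 region 2 lay just upstream of the Wdfy4 window, at chr14:33185572 to 33185631. A region 0.067 kb beyond the 5′ end of the Wdfy4 gene body, chr14:33193922-33194539, was called in 5 libraries. No peak overlapped the Xcr1 or Zbtb46 window in any library. The Zbtb46 RefSeq start used, chr2:181424388, lies inside the gene body, whose 5′ end on the minus strand is at 181493262. Near that end, Zbtb46 region 4, chr2:181491970-181492632, was called in 5 libraries, so the empty window does not describe the annotated 5′ end.

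Of the 9 genes, 7 (Xcr1, Clec9a, Cadm1, Naaa, Ppt1, Wdfy4 and Zbtb46) had at least 1 region called in all 6 libraries. A call means that the authors' list of that library, made at a q-value of 0.1, had a peak in the region. Of all protein-coding genes, 57.8% had such a region within 20 kb. A region called in both libraries of a genotype stood beside 8 of the 9 genes in DC, 8 in DE and 7 in WT, against 66.9%, 64.7% and 63.5% of all protein-coding genes in the same order. Itgae made the difference between the genotypes, and Tlr3 had no region called in both libraries of any genotype.

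Of the 187 regions, 131 and 48 were called in DC replicates 1 and 2, 54 and 69 in DE replicates 1 and 2, and 62 and 53 in WT replicates 1 and 2. Of all regions, 64.6% and 18.7% were called in these DC libraries, 19.8% and 21.5% in these DE libraries and 30.9% and 21.4% in these WT libraries. With the 50000 best peaks of each list, the counts were 51 and 48 in DC libraries, 53 and 63 in DE libraries and 43 and 49 in WT libraries. DC replicate 1 stood apart in the whole series too, with 169943 peaks against 50221 to 82080 in the other 5 libraries, and 68 of the 187 regions (36.4%) were called in that library alone, against 43.6% of all regions. A single library called 117 of the regions (62.6%, against 76.7% of all regions) and all 6 libraries called 26 (13.9%, against 9.05% of all regions). Both DC libraries called 38 of the regions, both DE libraries 40 and both WT libraries 34, against 14%, 12.9% and 12.1% of all regions. Cadm1, with a gene body of 332 kb, had 44 regions of which 36 were called once, and Xcr1, of 9.72 kb, had 13 of which 3 were called once.

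**Figure D1:**
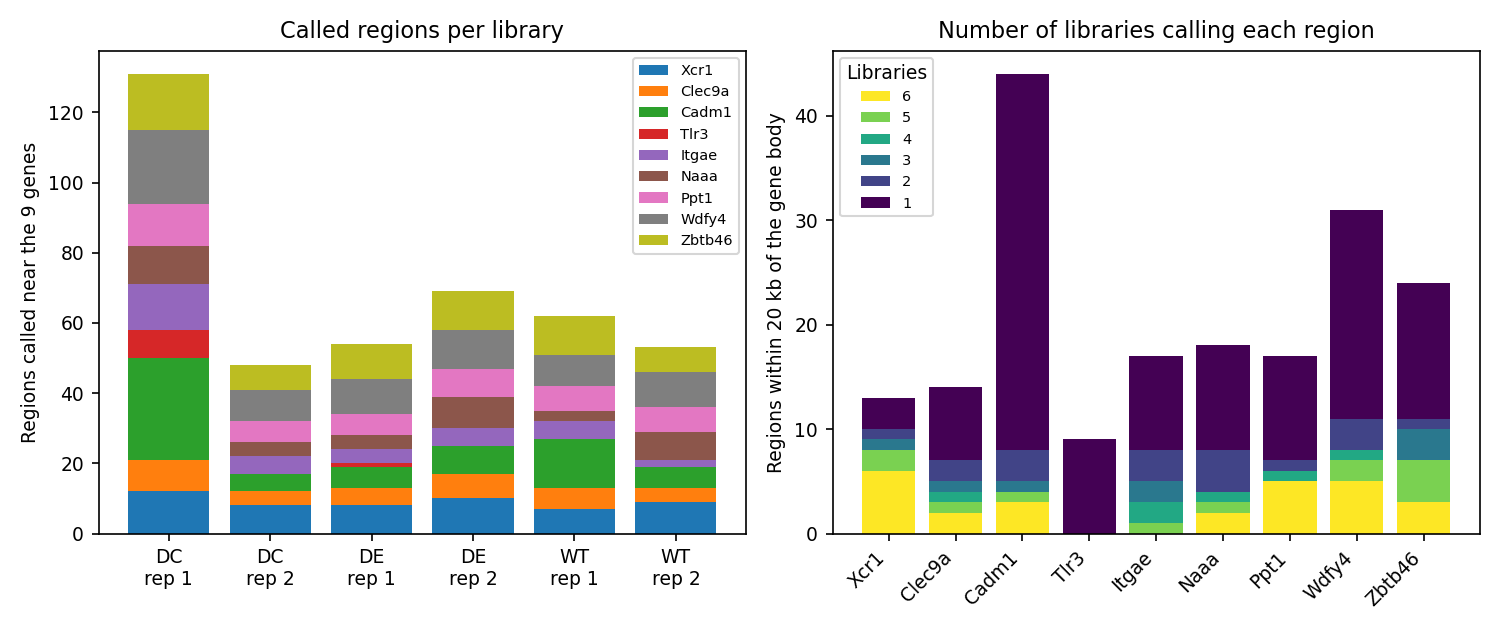
Left, number of the 187 regions near the 9 genes called in each library (2 DC, 2 DE and 2 WT libraries). Right, number of regions within 20 kb of each gene body, coloured by how many of the 6 libraries called them. DC replicate 1 called 131 regions, and the other libraries called 48 to 69.

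The strength of a region is given here as its summit pileup, the number of fragments over the highest summit in the region. Scaling gave each library the same median log2 deviation from region means over the 23480 regions called in all 6 libraries. The depth of sequencing is unknown, because the peak lists hold no read totals. Regions of a gene are numbered by the number of libraries that called them and then by median scaled pileup, and region 1 is called the lead region. The median ratio of the highest to the lowest of the 6 libraries was 1.91 over the 26 regions called in all 6 libraries, against 2.08 over all 23480.

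**Figure D2:**
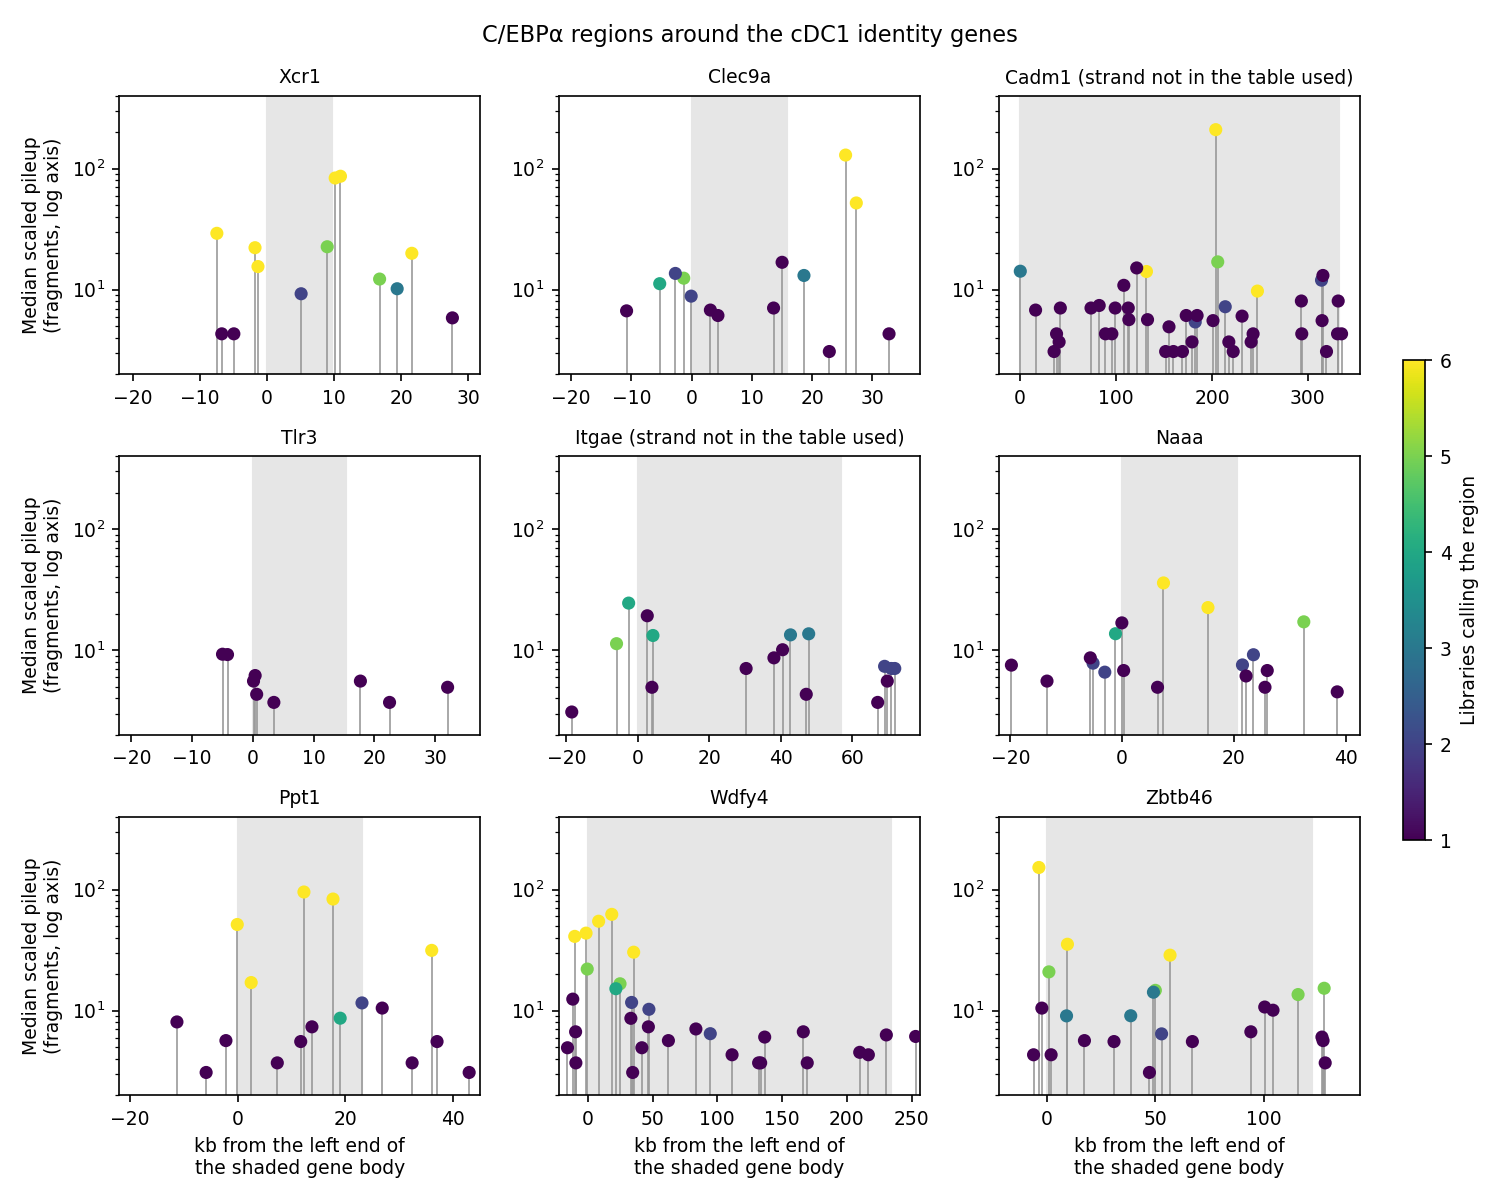
Regions around each gene, with the distance in kb from the left end of the gene body (shaded) on the horizontal axis and the median scaled summit pileup on a log vertical axis. Colour gives the number of libraries that called the region. Genes known to lie on the minus strand are flipped so that transcription runs left to right, and Cadm1 and Itgae are in genome order. The tallest region is inside Cadm1, with a median of 209.9 fragments.

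Among the surface receptors, Xcr1 (chr9:123852315-123862029), the receptor for the chemokine XCL1, had 6 regions called in all 6 libraries, more than 95.2% of protein-coding genes had within 20 kb. Its lead region, chr9:123850739-123851447, had 108.7 and 93.4 fragments in DC libraries, 61.9 and 83.8 in DE libraries and 62.6 and 89.3 in WT libraries. Both DC libraries exceeded every DE and WT library there. This region lies 0.868 kb beyond the 3′ end of Xcr1 and inside the neighbouring gene Fyco1. None of the 6 regions overlaps the Xcr1 gene body, and regions 2 and 5 also overlap Fyco1.

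Xcr1 region 2, chr9:123851572-123852190, overlaps a Fyco1 promoter and followed the batch instead of the genotype. It had 44.5 fragments in DC, 50.2 in DE and 57.5 in WT libraries of batch 1, and 118.0 in DC, 109.9 in DE and 124.0 in WT libraries of batch 2. Every library of batch 2 was above every library of batch 1. Xcr1 region 3, chr9:123869303-123869699, has its centre at −7.47 kb from the RefSeq start, that is upstream, and overlaps no other gene. It had 29.0 and 24.5 fragments in DC libraries, 22.6 and 29.4 in DE libraries and 47.4 and 43.1 in WT libraries, so that neither variant overlapped WT.

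Clec9a (chr6:129408862-129424764), the C-type lectin that binds actin of dead cells, had its lead region 9.47 kb beyond the gene body, inside Clec1a, at chr6:129434236-129434625. Values there were 131.0 and 79.7 fragments in DC libraries, 132.2 and 128.0 in DE libraries and 131.2 and 96.7 in WT libraries. The genotypes overlapped. Region 2 also lies in Clec1a, with 45.7 and 50.6 fragments in DC libraries, 63.6 and 79.3 in DE libraries and 49.5 and 53.6 in WT libraries, and there both DE libraries were highest. The most widely called region on the promoter side of Clec9a, chr6:129407377-129407721, had no call in DC replicate 2 and 5.6 to 17.9 fragments in the other 5 libraries. All 14 regions around Clec9a overlap another protein-coding gene of this crowded locus.

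Cadm1 (chr9:47530170-47862280), an adhesion molecule of the immunoglobulin superfamily used to sort cDC1 and their precursors, carried the strongest region of the 9 genes. Inside the gene body, at chr9:47733655-47734551, DC libraries had 212.6 and 163.9 fragments, DE libraries had 211.7 and 163.1 and WT libraries had 269.5 and 208.1. WT was highest within each batch, but the genotypes overlapped across batches. The median was above that of 97.9% of the regions called in all 6 libraries, and 94.2% of the 12650 genes with such a region had a weaker lead region. The rank among genes takes no account of window length, and the Cadm1 window of 372 kb was the longest of the 9. Region 2, chr9:47661731-47661981, was weak, with 13.0 and 15.3 fragments in DC libraries, 20.9 and 17.0 in DE libraries and 11.1 and 7.4 in WT libraries, and the genotypes did not overlap. Region 3 had a median of 9.8 fragments.

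Tlr3 and Itgae were the exceptions. Tlr3 (chr8:45395665-45411075), the endosomal sensor of double-stranded RNA, had 9 regions, each called in 1 library: 8 in DC replicate 1 and 1 in DE replicate 1. Their unscaled pileups were 6 to 15 fragments, where the smallest pileup that was called in a library was 4 to 7. No region near Tlr3 was called in WT libraries.

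Itgae (chr11:73090505-73147449), the αE chain of the integrin CD103, had 17 regions and none called in all 6 libraries. Its lead region, chr11:73084404-73084701, lies 5.804 kb outside the gene body and 0.825 kb from the neighbouring gene Ncbp3. It had 9.9 and 12.3 fragments in DC libraries, 10.9 and 11.3 in DE libraries, no call in WT replicate 1 and 20.0 in WT replicate 2. The missing WT call and the highest value thus came from the same genotype. Region 2 was also unevenly called, with 27.8 fragments in DC replicate 1, 9.2 and 28.3 in DE libraries and 21.2 in WT replicate 1, and no call in DC replicate 2 or WT replicate 2.

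Of the enzymes, Ppt1 (chr4:122836077-122859175), a lysosomal palmitoyl-protein thioesterase, had 5 regions called in all 6 libraries, 4 of them overlapping its gene body. The lead region, chr4:122848091-122848758, had 115.5 and 78.1 fragments in DC libraries, 101.3 and 109.9 in DE libraries and 89.8 and 75.7 in WT libraries. Both DE libraries were above both WT libraries, and DC overlapped both DE and WT. Region 2, chr4:122853579-122854087, was the steadiest of the 26, with 80.9 and 72.0 in DC libraries, 78.7 and 91.7 in DE libraries and 91.8 and 86.2 in WT libraries, a ratio of highest to lowest of 1.28.

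Ppt1 region 3, chr4:122835651-122836387, is the promoter region printed above. It had 36.5 and 44.4 fragments in DC libraries, 45.2 and 60.0 in DE libraries and 72.7 and 57.8 in WT libraries. Both DC libraries were below both WT libraries, and DE overlapped WT.

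Naaa (chr5:92257660-92278181), N-acylethanolamine acid amidase, a lysosomal hydrolase of lipid amides, had 2 regions called in all 6 libraries, both inside the gene. Region 1, chr5:92270526-92271019, had 38.9 and 55.1 fragments in DC libraries, 23.4 and 35.1 in DE libraries and 29.3 and 36.8 in WT libraries. Both DC libraries exceeded the other 4. Region 2, which differed most between genotypes, is described with the tests.

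Wdfy4 (chr14:32959547-33193855), a BEACH-domain protein needed for cross-presentation of cell-associated antigen, had 5 regions called in all 6 libraries, none of which overlaps another protein-coding gene. The lead region, inside the gene at chr14:33175089-33175498, had 52.5 and 52.1 fragments in DC libraries, 97.9 and 70.2 in DE libraries and 89.8 and 54.7 in WT libraries. DC libraries were lowest, by a small margin below WT replicate 2. Region 3, chr14:33194879-33195392, lies 1.02 kb beyond the gene body and had 61.2 and 39.8 in DC libraries, 68.6 and 47.6 in DE libraries and 37.3 and 23.1 in WT libraries, with neither variant overlapping WT.

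Wdfy4 region 2, chr14:33185085-33185766, covers the RefSeq start side of the gene, and had 38.9 and 49.0 fragments in DC libraries, 46.0 and 63.4 in DE libraries and 60.6 and 64.1 in WT libraries. Region 4, chr14:33203610-33204127, had 43.9 and 38.3 in DC libraries, 48.5 and 60.0 in DE libraries and 29.3 and 35.7 in WT libraries. It lies 9.755 kb beyond the Wdfy4 gene body and 9.867 kb from Arhgap22, so which gene it serves cannot be told. DC libraries did not overlap WT libraries in either region, but in DC against WT neither difference passed: −0.51 (95% interval −1.09 to 0.07, limma adjusted p with batch 0.379) in region 2 and 0.34 (−0.29 to 0.97, limma adjusted p 0.657) in region 4. Region 5, chr14:33158133-33158643, had 29.0 and 16.9 in DC libraries, 31.8 and 18.1 in DE libraries and 44.4 and 32.6 in WT libraries.

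Zbtb46 (chr2:181371009-181493262), the zinc-finger factor of conventional dendritic cells, had its lead region 2.66 kb beyond the gene body at chr2:181495920-181497914, where it covers the promoter of Tpd52l2. DC libraries had 153.2 and 173.1 fragments, DE libraries 116.3 and 163.1 and WT libraries 151.4 and 150.3. Taken at the highest summit of each library, both DC libraries were just above both WT libraries, and DE overlapped DC and WT. The region joins 15 peaks with 2 main summits, near positions 181495992 and 181497135. WT replicate 2 had no peak within 100 bp of the first summit, so its value comes from the second. The value of DC replicate 2 also comes from the second. At that summit DC libraries had 135.3 and 173.1 fragments, DE libraries 92.1 and 135.9 and WT libraries 94.9 and 150.3. DC and WT thus overlapped at the second summit. Region 2, inside the gene at chr2:181483492-181484031, had 32.7 and 36.8 in DC libraries, 40.2 and 34.0 in DE libraries and 31.3 and 37.8 in WT libraries, and was among the steadiest.

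**Figure D3:**
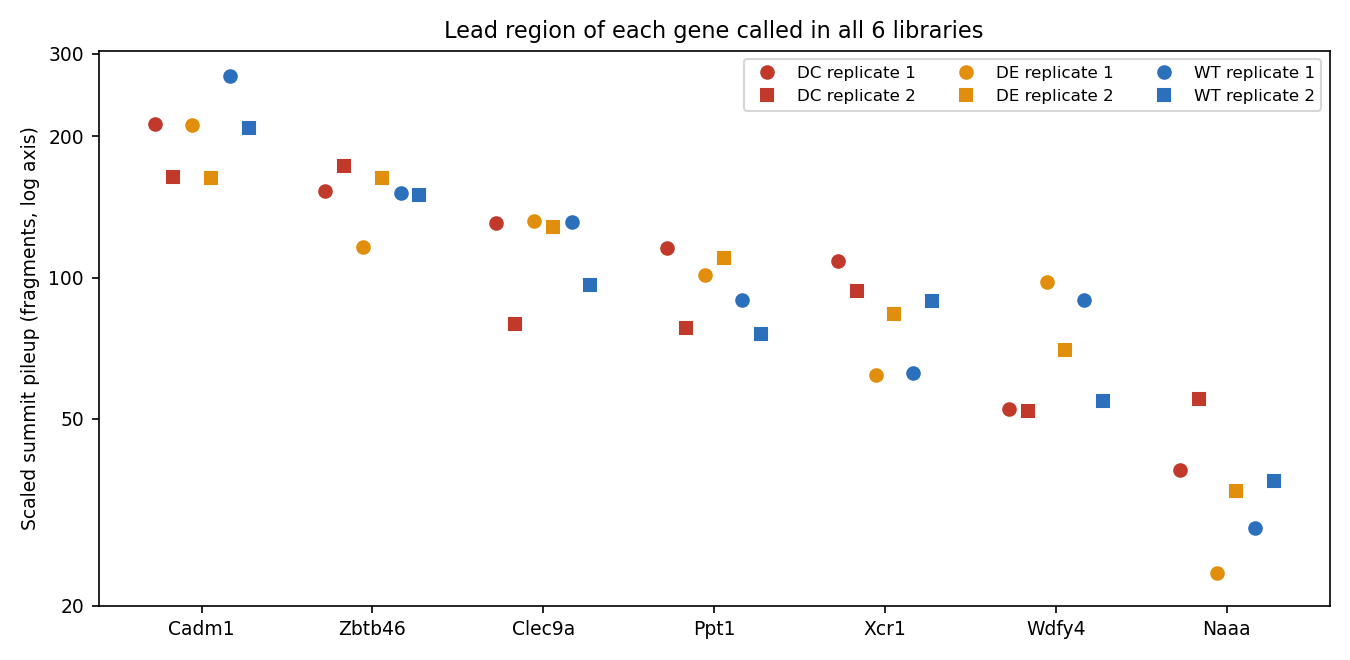
Scaled summit pileup of the lead region of the 7 genes with a region called in all 6 libraries, on a log axis, 1 point per library (DC, DE and WT). Cadm1 is highest, with 163.1 to 269.5 fragments, and Naaa lowest, with 23.4 to 55.1.

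By median lead pileup the order was Cadm1 (209.9 fragments), Zbtb46 (152.3), Clec9a (129.5), Ppt1 (95.5), Xcr1 (86.6), Wdfy4 (62.4) and Naaa (36.0). The ranges of the 6 libraries overlapped between the neighbours of each pair in this order. Of the 26 regions called in all 6 libraries, 14 overlapped the gene itself and 12 lay outside it. Another protein-coding gene overlapped 7 of the 12, and 3 of the 7 lead regions (Xcr1, Clec9a and Zbtb46) are among these, so which gene such a region serves cannot be told from these data.

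The regions called in all 6 libraries were tested between genotypes with limma on log2 scaled pileups over all 23480 regions with Benjamini-Hochberg adjustment, at an adjusted p of 0.05. Without batch in the model no region of the series passed in any of the 3 comparisons (0% in each direction), and unadjusted p fell below 0.05 for 1868 regions in DC against WT (7.96%), 1148 in DE against WT (4.89%) and 549 in DC against DE (2.34%), of which 1, 3 and 1 were among the 26. The libraries of a batch deviated together, so the same model was fitted with batch as a replicate block, and these values follow. In DC against WT, 1 of the 26 regions was higher (3.15% of all regions) and none was lower (1.15% of all regions). In DE against WT, 1 was higher (1.15%) and none lower (0.281%). In DC against DE none passed (0.00852% higher and 0.0256% lower). An unadjusted p below 0.05 was reached with batch by 5 of the 26 regions in DC against WT (16.9% of all regions), 6 in DE against WT (12%) and 4 in DC against DE (8.16%).

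The region that was higher in DC was Naaa region 2, chr5:92262521-92263105, inside the gene and 15.4 kb downstream of the RefSeq start. It had 36.5 and 46.0 scaled fragments in DC libraries, 20.1 and 24.9 in DE libraries and 18.2 and 7.4 in WT libraries, from unscaled pileups of 59 and 30, 24 and 22, and 18 and 7. Both DC libraries were above both DE and both WT libraries, and no genotypes overlapped. The log2 difference of DC against WT was 1.82 ± 0.40 (SE, n = 2 each), with an adjusted p of 0.00141 in limma with batch and 0.299 without. Here and elsewhere, limma's SEs, intervals and p-values draw on the spread of all regions tested, not of the single region alone. Within batches the ratio of DC to WT was 2.01 (95% interval of counting error 1.17 to 3.62) in batch 1 and 6.25 (2.69 to 16.8) in batch 2. The result turned on the replicates of batch 2: with batch, the difference was 1.41 (limma adjusted p 0.246) without DC replicate 2 and 1.01 (0.371) without WT replicate 2. The difference of DE against WT was 0.95 and did not pass (limma adjusted p with batch 0.274), except without WT replicate 1 (1.77, limma adjusted p 0.0487), and the DC against DE difference was 0.87 (limma adjusted p 0.554), so DC and DE are not shown to differ here.

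The region that was higher in DE was Zbtb46 region 3, chr2:181436227-181436677, inside the annotated gene body with its centre at −12.1 kb from the RefSeq start, that is upstream. It had 24.1 and 29.1 fragments in DC libraries, 77.0 and 47.6 in DE libraries and 22.2 and 28.4 in WT libraries. Both DE libraries were above the other 4, and DC and WT overlapped. The log2 difference of DE against WT was 1.27 ± 0.34 (SE, n = 2 each), with a limma adjusted p of 0.0324 with batch and 0.919 without. The ratio of DE to WT was 3.47 (95% interval of counting error 2.16 to 5.80) in batch 1 and 1.68 (1.01 to 2.83) in batch 2. The limma adjusted p with batch missed the threshold when a library was left out: the difference was 0.77 (adjusted p 0.572) without DE replicate 1, 1.77 (0.0538) without DE replicate 2, 0.99 (0.368) without WT replicate 1 and 1.55 (0.0736) without WT replicate 2. It also missed it with the deposited fold in place of the pileup, at a difference of 1.25 (limma adjusted p 0.199), and with scaling by the background floor, at 1.82 (0.384). DC against DE was −1.19 (limma adjusted p 0.233), so a difference between the variants is not shown.

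**Figure D4:**
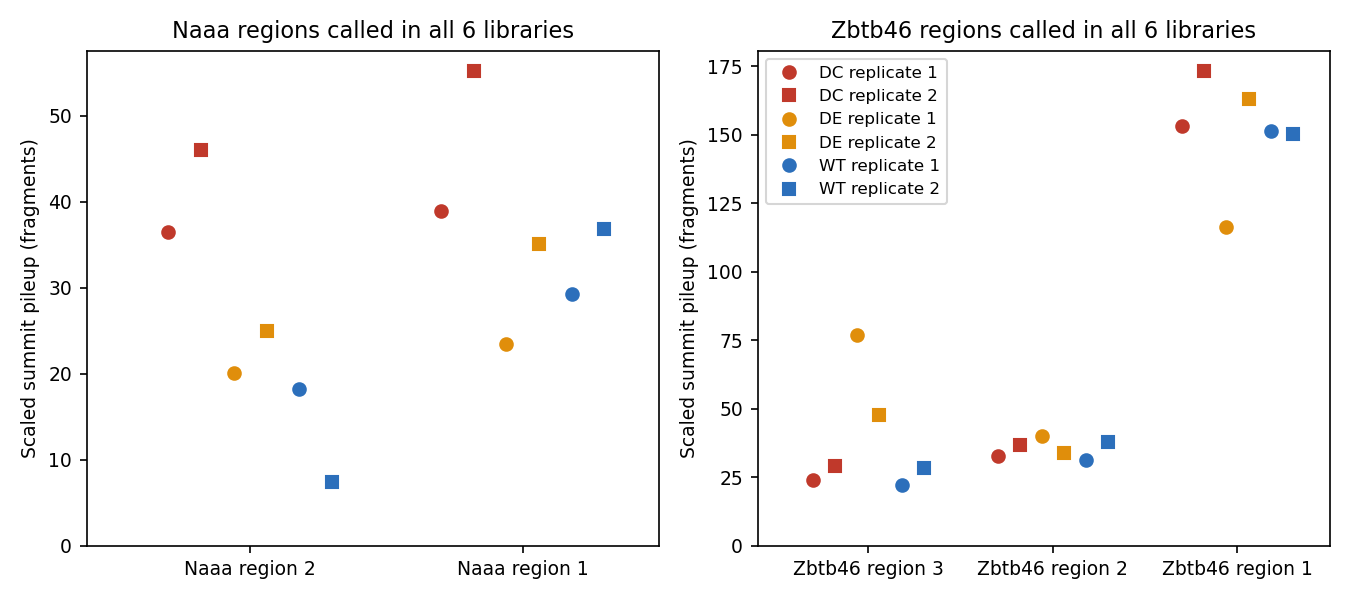
Scaled summit pileup of the regions of Naaa and Zbtb46 called in all 6 libraries, 1 point per library, with circles for replicate 1 (batch 1) and squares for replicate 2 (batch 2). DC libraries lie at 36.5 and 46.0 in Naaa region 2 and DE libraries at 77.0 and 47.6 in Zbtb46 region 3, above the other genotypes in each.

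The other regions with an unadjusted p below 0.05 in limma with batch failed the adjusted threshold. At Wdfy4 region 3 the log2 difference was 0.75 (95% interval 0.13 to 1.37, limma adjusted p 0.175) in DC against WT and 0.96 (0.34 to 1.58, limma adjusted p 0.103) in DE against WT. At Xcr1 region 3 it was −0.76 (−1.46 to −0.07, limma adjusted p 0.240) in DC against WT and −0.81 (−1.50 to −0.11, limma adjusted p 0.301) in DE against WT. In these regions neither variant overlapped WT.

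In DC against WT the others were the Ppt1 promoter, at −0.69 (−1.28 to −0.10, limma adjusted p 0.196), and Wdfy4 region 5, at −0.78 (−1.51 to −0.06, limma adjusted p 0.250). In DE against WT they were, beside Naaa region 2, Cadm1 region 2, at 1.06 (0.21 to 1.91, limma adjusted p 0.250), and Wdfy4 region 4, at 0.74 (0.11 to 1.37, limma adjusted p 0.295). In DC against DE they were, beside the regions described above, Naaa region 1, at 0.69 (0.03 to 1.36, limma adjusted p 0.585), and Wdfy4 region 1, at −0.66 (−1.20 to −0.12, limma adjusted p 0.495). The DC and DE comparisons share the WT libraries.

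Over the 26 regions the median log2 difference was −0.08 in DC against WT, −0.04 in DE against WT and −0.15 in DC against DE, where all 23480 regions had −0.02, −0.00 and −0.00. Higher values outnumbered lower ones in none of the 3 comparisons: 12 of the 26 were positive in DC against WT, 12 in DE against WT and 9 in DC against DE. Scaling by the background floor of each library adds about the same amount to every region of a comparison and moved the median of all regions to 0.84, 0.55 and 0.30 in these comparisons, so differences are given relative to the median of all regions.

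**Figure D5:**
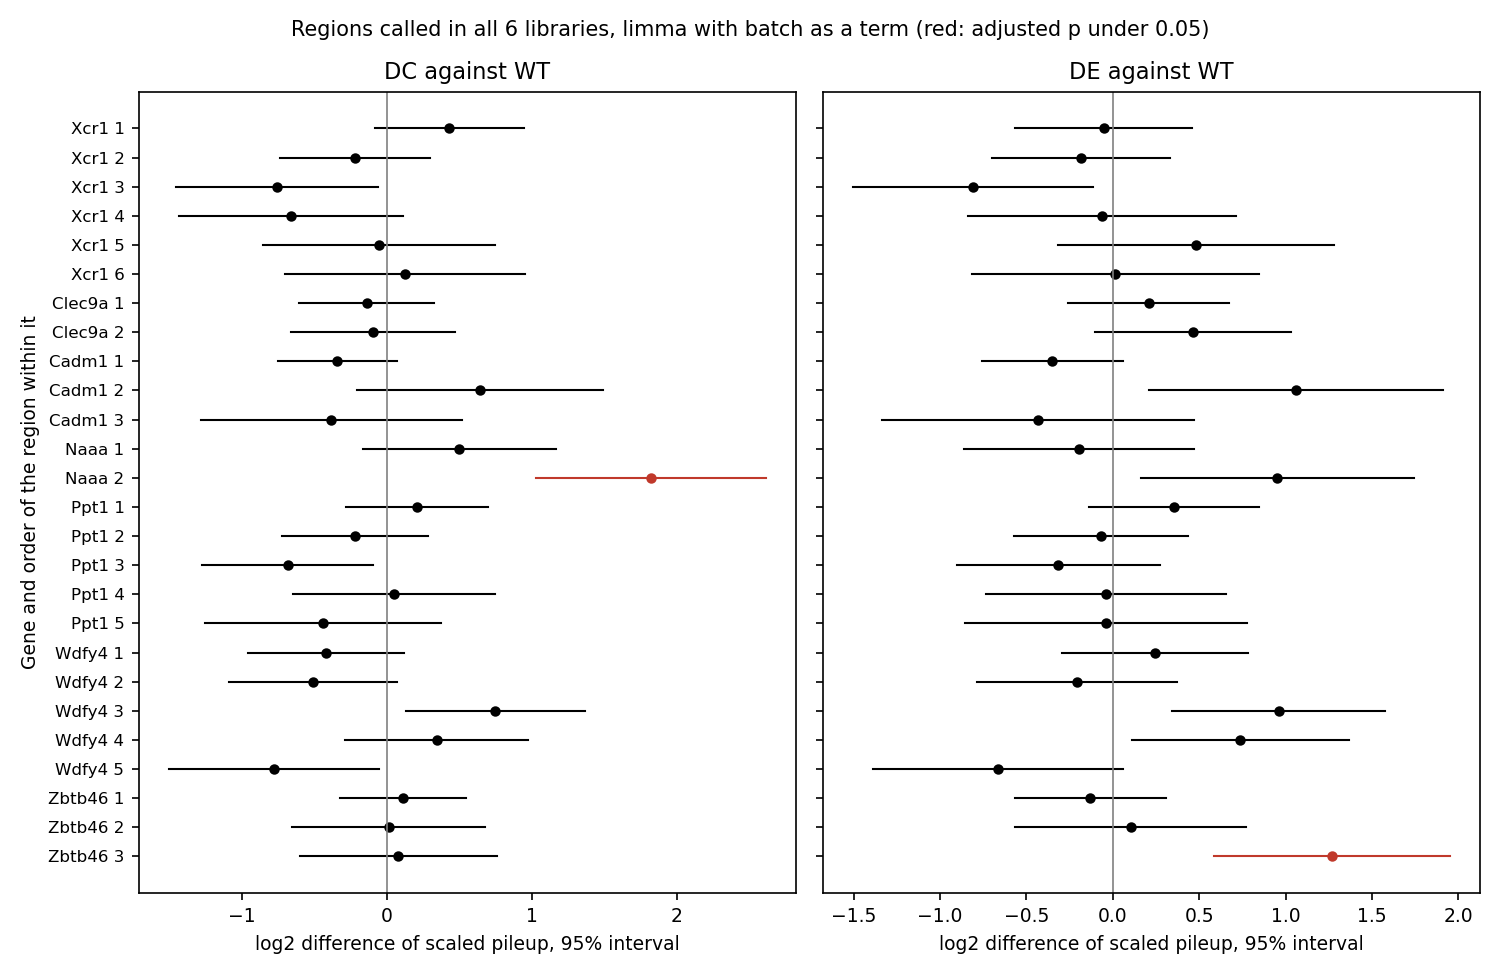
Log2 difference in scaled summit pileup with its 95% interval for each of the 26 regions called in all 6 libraries, from limma with batch in the model, in DC against WT (left) and DE against WT (right), with red for an adjusted p under 0.05. Most intervals include 0, and Naaa region 2 in DC against WT (1.82) and Zbtb46 region 3 in DE against WT (1.27) passed the adjusted threshold.

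Few regions were called in 1 genotype and missed in another. Both DC libraries and neither WT library called 3 of the 187 regions, against 1.52% of all regions, and they were 2 Itgae-side regions inside P2rx5, with 4.9 and 9.2 fragments each in DC libraries, and Wdfy4 region 8. Wdfy4 region 8, chr14:33171975-33172276, had 33.4 and 15.3 fragments in DC libraries, 15.1 and 13.6 in DE libraries and no call in WT libraries, and was the 1 region that both DE libraries and neither WT library called (0.846% of all regions). Its 4 summits lie within 106 bp. Both WT libraries and neither DC library called 1 region, chr2:181454520-181454642 in Zbtb46 (0.39% of all regions), with no call in DC libraries, 7.5 in DE replicate 1, and 9.1 and 11.6 in WT libraries. Both WT libraries and neither DE library called 0 of them (0.638%). A missing call says only that no peak passed the authors' q-value in that library.

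For each gene with a lead region called in all 6 libraries, the gene whose lead region had the closest values was found among 12606 candidates, as the Euclidean distance of the 6 log2 scaled pileups. The closest were Dtx4 to Zbtb46 (0.19), Cep19 to Ppt1 (0.22), Zfp3 to Clec9a (0.27), Atp7b to Cadm1 (0.28), Plpp1 to Wdfy4 (0.28), Ube4a to Xcr1 (0.31) and Tnfrsf22 to Naaa (0.40). Naaa thus had the least close counterpart of the 7. Its counterpart had 43.3 and 58.2 fragments in DC libraries, 25.9 and 38.5 in DE libraries and 25.2 and 31.5 in WT libraries.

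Other cDC1 genes were read the same way, from 3 lists. Of all protein-coding genes, 66.9% had a region called in both DC libraries, 64.7% in both DE libraries and 63.5% in both WT libraries. Of all regions tested with batch, 3.15% were higher and 1.15% lower in DC against WT. The shares were 1.15% and 0.281% in DE against WT, and 0.00852% and 0.0256% in DC against DE. Of 8 factors that set cDC1 fate or oppose it (Irf8, Batf3, Id2, Nfil3, Bcl6, Zeb2, Irf4 and Tcf4), 8 had a region called in both DC libraries, 7 in both DE libraries and 8 in both WT libraries. None of their 23 regions called in all 6 libraries was higher, 1 was lower in DC against WT (Batf3, −1.37 ± 0.32, limma adjusted p with batch 0.00329) and 1 was lower in DE against WT (Nfil3, −0.89 ± 0.24, limma adjusted p 0.0339). The Batf3 call was lost without either DC replicate (adjusted p 0.0956 and 0.132) or without WT replicate 2 (0.333), and the Nfil3 call without DC replicate 1 (0.0835), DC replicate 2 (0.0747), DE replicate 1 (0.653) or either WT replicate (0.40 and 0.0933), in limma. Neither passed with the deposited fold (0.448 and 0.340) or floor scaling (0.519 and 0.806).

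Of 14 further cDC1 surface and effector genes, 11 had a region called in both DC libraries, 11 in both DE libraries and 10 in both WT libraries. Of their 31 regions called in all 6 libraries, none was higher, and 1 was lower in DC against WT and in DC against DE, beside Rab7b, a small GTPase of the endolysosomal system. It had 77.9 and 49.0 fragments in DC libraries, 185.8 and 97.4 in DE libraries and 160.5 and 114.6 in WT libraries, and both DC libraries were below the other 4. Its log2 difference in DC against WT was −1.13 ± 0.24 (limma adjusted p with batch 0.000873), lost without DC replicate 1 (0.107), DC replicate 2 (0.0855) or WT replicate 2 (0.104), with the deposited fold (0.587) and with floor scaling (0.734). Of 14 cross-presentation and MHC class I loading genes, 12 had a region called in both libraries in each genotype, and none of their 33 regions passed in any comparison. Over the genes that had a region called in all 6 libraries, the median lead pileup was 95.5 fragments for 7 of the 9 genes, 55.0 for 7 of the 8 fate factors, 60.3 for 9 of the 14 further cDC1 genes, 74.8 for 12 of the 14 cross-presentation genes and 57.9 for 12650 of all protein-coding genes. Tlr3 and Itgae, with no such region, are not in the first of these medians.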

How the data were processed

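C/EBPα CUT&RUN peak lists of 6 libraries (DC, DE and WT, 2 each) were analysed. The submitters' processing notes name mm10, MACS2 2.2.9.1, HOMER, Bowtie2, Trimmomatic and SAMtools without their roles, and do not state a use of IgG as control. The deposited lists give, per peak, a score, a fold over local background (a ratio), −log10 of the p-value and of the q-value, and the summit offset. The smallest −log10 q per list was 1.00 to 1.03.

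Peaks that overlapped by 1 bp were merged, and regions within 20 kb of gene bodies (RefSeq, GRCm38.p6) were taken. The pileup was recovered from the deposited fold and −log10 p-value, a whole number for at least 99.986% of peaks per list within 5% of the step between whole numbers. It was scaled by the median log2 deviation over 23480 regions and tested with limma 3.58.1 in R 4.3.3 (trended variance) in all 6 libraries. The scripts ran in Python 3.11.15 with numpy 2.4.6, pandas 2.3.3 and scipy 1.17.1, and the test was checked on simulated data. The replicate number is the labelled batch and so pairs the libraries. Deviations from genotype means correlated between same-batch libraries of different genotypes, with r of 0.548 (DC and WT), 0.415 (DE and WT) and 0.382 (DC and DE). These r values run over regions, which are not independent replicates. Depth is unknown, and counting intervals cover counting error only.

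Named are the lead region of each gene, regions past the adjusted threshold, and regions called in both libraries of a genotype. Regions with an unadjusted p below 0.05, and the other regions given with values, were chosen after their values were seen. The genes, lists and tests were chosen with earlier results of these data known. Alternatives were another scaling, the deposited fold, other windows, peak thresholds and merging, and each library left out. With 2 libraries against 2, an exact permutation test cannot go below a two-sided p of 0.333.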

Additional observations from a re-analysis of the deposited data

Results flagged for a closer look

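The region beside Rab7b differed between the variants: the log2 difference of DC against DE was −1.12 ± 0.24 (SE, n = 2 each), with a limma adjusted p of 0.0432 with batch in the model, 1 of 8 such regions among 23480. Both DC libraries were below both DE libraries. The limma adjusted p was 0.740 without DC replicate 1, 0.580 without DC replicate 2, 0.560 without DE replicate 1, 0.0592 without DE replicate 2, 0.628 with the deposited fold and 1.00 with floor scaling. Rab7b is on the list of further cDC1 genes and is not among the 9.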

How the results depend on the processing

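The replicate block, which uses the labelled batch as a valid pairing, moved the count of the 26 regions past the threshold to 1 in DC against WT and 1 in DE against WT, against 0 without it, and changed no call in DC against DE. With the block the count stayed 1 in DC against WT under floor scaling, the deposited fold, regions called in all 4 libraries compared, windows of 10 or 50 kb, a −log10 q of at least 2 and merging at 50 bp, and was 1 in DE against WT under each of these except floor scaling and the deposited fold, which gave 0. With 1 library left out these counts were 0 to 1 in each of these comparisons. The number of regions called in DC replicate 1 was 51 with the 50000 best peaks of each library. A window of 50 kb gave 80 in DC replicate 2, 84 and 106 in DE replicates 1 and 2 and 101 and 94 in WT replicates 1 and 2.

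Floor scaling, which adds about the same amount to every region of a comparison, reversed with or without the block the sign of lead regions that did not pass: in DC against WT to 0.72 at Clec9a, 0.52 at Cadm1 and 0.44 at Wdfy4, in DE against WT to 0.50 at Xcr1, 0.20 at Cadm1, 0.36 at Naaa and 0.42 at Zbtb46, and in DC against DE to 0.16 at Ppt1. The deposited fold, likewise, gave 0.15 at Clec9a in DC against WT, and 0.10 at Naaa and 0.13 at Zbtb46 in DE against WT. With 1 library left out, the sign changed for small log2 differences. Without the block they ran from −0.50 to 0.22 at Clec9a, −0.078 to 0.49 at Ppt1 and −0.0997 to 0.25 at Zbtb46 region 3 in DC against WT, −0.31 to 0.20 at Xcr1, −0.012 to 0.43 at Clec9a, −0.49 to 0.098 at Naaa, −0.12 to 0.60 at Wdfy4 and −0.37 to 0.11 at Zbtb46 in DE against WT, −0.71 to 0.0099 at Clec9a, −0.18 to 0.19 at Cadm1, −0.43 to 0.13 at Ppt1 and −0.0021 to 0.49 at Zbtb46 in DC against DE. With the block they ran from −0.38 to 0.096 at Clec9a, −0.045 to 0.45 at Ppt1, −0.0605 to 0.28 at Zbtb46 and −0.21 to 0.36 at Zbtb46 region 3 in DC against WT, −0.26 to 0.15 at Xcr1, −0.058 to 0.47 at Clec9a and −0.33 to 0.071 at Zbtb46 in DE against WT, −0.41 to 0.11 at Ppt1 in DC against DE. Among the reversed values with the block were −0.14 at Zbtb46 region 3 in DC against WT without DC replicate 2, and 0.091 at Xcr1 without DE replicate 1 and 0.040 at Zbtb46 without WT replicate 1 in DE against WT. The cause of the changes other than those under floor scaling was not tested. The count of genes with a region called in every library left of a genotype was 8 to 9 in DC, 8 to 9 in DE and 8 in WT with 1 library left out. A genotype that lost a library then rests on a single list. No share of all protein-coding genes is given for this setting, so these counts say nothing particular about the 9 genes.

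Weak regions rest on few fragments, since the smallest pileup called was 4 to 7, and a region that misses the authors' threshold has no value.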

Other observations

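Genes of neighbouring fates were read in the same way. Of all protein-coding genes, 66.9% had a region called in both DC libraries, 64.7% in both DE libraries and 63.5% in both WT libraries. Of all regions tested with batch, 3.15% were higher and 1.15% lower in DC against WT. In DE against WT, 1.15% were higher and 0.281% lower. Of 13 genes of type 2 conventional dendritic cells, 11 had a region called in both DC libraries, 12 in both DE libraries and 10 in both WT libraries. In DC against WT, 1 of their 36 regions called in all 6 libraries was higher, beside the receptor gene Notch2 (1.25 ± 0.32, limma adjusted p with batch 0.00959), and 1 was lower, beside the integrin gene Itgam (−1.02 ± 0.24, limma adjusted p 0.00379). The Notch2 region had 48.2 and 68.9 fragments in DC libraries, 41.0 and 46.4 in DE libraries and 22.2 and 26.3 in WT libraries. The Itgam region had 103.8 and 59.7 fragments in DC libraries, 113.8 and 72.5 in DE libraries and 168.5 and 151.4 in WT libraries. Both calls were lost in limma without DC replicate 1 (adjusted p 0.121 and 0.0731), DC replicate 2 (0.349 for each) or WT replicate 2 (0.130 and 0.316). The Itgam call was also lost with the deposited fold (0.131) and floor scaling (0.842).

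Of 8 dendritic and progenitor genes all had a region called in both libraries of each genotype, and 1 of 33 regions, beside the chemokine receptor gene Ccr7, was lower in both variants. It had 35.8 and 16.9 fragments in DC libraries, 32.6 and 15.9 in DE libraries and 65.6 and 65.2 in WT libraries. The log2 difference was −1.41 ± 0.35 in DC against WT and −1.52 ± 0.35 in DE against WT (limma adjusted p with batch 0.00611 and 0.00562), and the comparisons share the WT libraries. In DC against WT it was lost in limma without DC replicate 1 (0.0516), DC replicate 2 (0.309) or WT replicate 2 (0.450) and with floor scaling (0.487), and in DE against WT without DE replicate 1 (0.0514), DE replicate 2 (0.193) or WT replicate 2 (0.454), with the deposited fold (0.0522) and with floor scaling (0.711). Neutrophil genes (9 of 10 listed matched) had the highest median lead pileup of the lists, 131.3 fragments, where Elane and Prtn3 share 1 lead region. All 9 had a region called in both libraries of each genotype. Of their 26 regions 1 was higher in DC against WT, beside Cebpe (0.85 ± 0.23, limma adjusted p with batch 0.0160), with 141.5 and 205.3 fragments in DC libraries, 149.8 and 121.2 in DE libraries and 84.8 and 106.2 in WT libraries. It was lost in limma without DC replicate 1 (0.0979), DC replicate 2 (0.613), WT replicate 1 (0.181) or WT replicate 2 (0.0898), with the deposited fold (0.0893) and with floor scaling (0.106).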
